A study of Homo sapiens with 4 samples.

Results

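Wound proteases were examined in RNA-seq data of HaCaT, an established human keratinocyte line, after knockdown of the m6A demethylase ALKBH5. The group holds 9 of the 58735 genes in the deposited tables and was given by name: the matrix metalloproteinases MMP1, MMP9, MMP10, MMP13 and MMP14, the urokinase-type plasminogen activator PLAU and its receptor PLAUR, and the tissue inhibitors of metalloproteinases TIMP1 and TIMP2. Each name matched 1 row of each table. The siControl group was HaCaT cells of WT genotype that received a control siRNA, and the siALKBH5 group was HaCaT cells that received siRNA against ALKBH5. Both groups were grown in the same serum-containing medium and transfected with 200 pmol of siRNA by lipofectamine, and there were 2 libraries per group. The labels name no scratch or other wound for these cells, so the levels are those of a transfected culture of 1 cell line. Which of the ALKBH5 siRNAs was used for these libraries, and whether the libraries of a group came from separate cultures, is not given in the labels. The p-values therefore measure the spread between these libraries, which may be technical.

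At a wound edge, keratinocytes move over and through matrix, and secreted proteases open the way. MMPs are made as inactive proenzymes and together cut most components of the matrix: MMP1 and MMP13 are collagenases, MMP10 is a stromelysin, MMP9 is a gelatinase, and MMP14 sits in the plasma membrane, where it cuts pericellular collagen and activates other MMPs. PLAU, held at the cell surface by PLAUR, turns plasminogen into plasmin, which dissolves fibrin and can activate several pro-MMPs. TIMP1 and TIMP2 bind active MMPs and block them, and TIMP2 also takes part in the activation of MMP2 by MMP14.

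The knockdown was checked first. ALKBH5 counts were 1512 and 1576 under siControl against 956 and 816 under siALKBH5, and its level fell to 55.5% of the control level (log2 fold change -0.85, adjusted p = 6.4e-15 by edgeR). The libraries held between 16017502 and 18837807 counts on genes. Of the 15075 genes with enough counts for the test of edgeR, 36.6% passed an adjusted p of 0.05, and 2.92% were also at 1 or more in either direction on the log2 scale, the thresholds of the study. Levels are expressed in CPM (counts per 1e6 counts of the library, on TMM-scaled library sizes), and the scaling factors lay between 0.992 and 1.008. Of the 10 keratinocyte markers examined, 0 were at or under the floor of 3 counts. Of the 9 fibroblast markers, COL1A2, COL3A1, PDGFRA and PDGFRB were at or under that floor in all 4 libraries, as were PECAM1, KDR and TEK among 5 endothelial markers and PTPRC, CD68 and MPO among 7 leukocyte markers. The summed level of the keratinocyte markers was 18192 to 18628 CPM in siControl and 24116 to 24192 in siALKBH5, that of the fibroblast markers 22.2 to 23.4 and 19.38 to 19.99, that of the endothelial markers 32.5 to 32.6 and 35.0 to 35.5, and that of the leukocyte markers 2.67 to 3.72 and 3.95 to 4.77. COL1A1, at 267 to 310 counts per library, made up most of the fibroblast sum. VWF had 293 to 501 counts per library, CDH5 147 to 237 and CD14 34 to 74. Within these lists single markers went both ways. KRT5 carried most of the keratinocyte rise, 4 keratinocyte markers were higher and 3 were lower (KRT17, TP63 and ITGB4) by the adjusted p of edgeR, and the median log2 fold change of that list was -0.011. DCN and LUM of the fibroblast list fell by 1.25 and 1.08 on the log2 scale, VWF rose by 0.51 and CDH5 fell by 0.69 among the endothelial markers, and CD14 of the leukocyte list rose by 0.64. Their part in the results below was not tested. In bulk RNA, fewer cells that express a gene and less RNA of it per cell cannot be told apart.

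Among the 8 tested members, MMP1 had the largest change and rose after ALKBH5 knockdown to 2.95 times the control level, while the second collagenase, MMP13, rose less. PLAU and TIMP2 fell and TIMP1 rose, each by under 0.25 on the log2 scale. MMP10, MMP14 and PLAUR did not pass the test, and MMP9 had too few counts for it. Of the 8 members tested, 3 were higher and 2 were lower at an adjusted p under 0.05, against 19.3% and 17.3% of all genes tested. With the minimum fold change, 1 member was higher, MMP1, against 1.62% of all genes tested, and 0 were lower, against 1.3%. With DESeq2, 2 members were higher and 1 was lower at an adjusted p under 0.05. The groups did not overlap in 7 of the 8 tested members, a pattern that 66.3% of all genes tested showed. In 5 of them both knockdown libraries were higher and in 2 both were lower, against 32.8% and 33.5% of all genes. The median log2 fold change of the tested members was 0.14, beside -0.0081 over all genes tested.

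**Figure D1:**
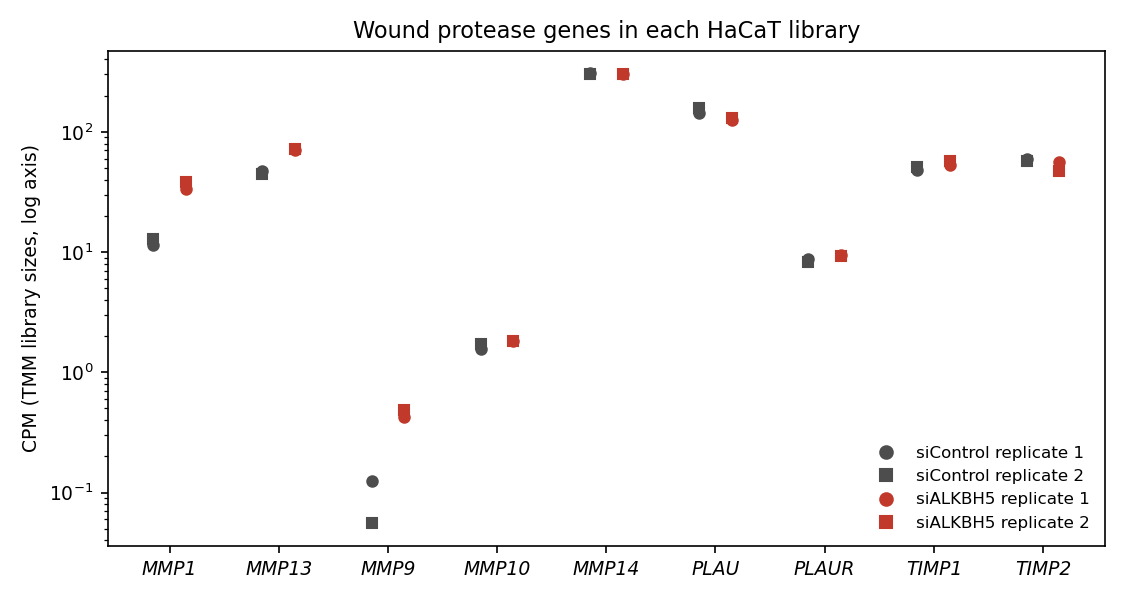
Level of each member in each of the 4 libraries, as CPM on a log axis (grey, siControl; red, siALKBH5; circles, replicate 1; squares, replicate 2). MMP1 went from 11.5 and 12.9 CPM to 33.8 and 38.2, while MMP14, the most abundant member, stayed between 301 and 307 CPM.

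MMP1, the interstitial collagenase that keratinocytes switch on when they touch dermal collagen in a wound, lies on the minus strand of chromosome 11 of GRCh38 from 102789920 to 102798160 (ENSG00000196611). Its counts were 186 and 232 under siControl against 631 and 629 under siALKBH5, or 11.5 and 12.9 CPM against 33.8 and 38.2 CPM. Both knockdown libraries stood far above both control libraries. The means were 12.2 ± 0.955 CPM for siControl and 36.0 ± 3.14 CPM for siALKBH5 (SD, n = 2 each). The log2 fold change was 1.55, with a standard error of 0.09 (95% interval from 1.36 to 1.74, adjusted p = 3.7e-15 by the quasi-likelihood test of edgeR). A total of 87 of the genes tested had a higher log2 fold change. Set 1 against 1, the 4 pairs of a knockdown and a control library gave log2 differences of 1.39 to 1.73, and MMP1 passed both thresholds in all 11 alternative fits, at 1.47 to 1.64.

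MMP13, collagenase 3, cuts fibrillar collagens as MMP1 does and lies in the same gene cluster, on chromosome 11 from 102942995 to 102955734 (ENSG00000137745). Its counts were 763 and 800 under siControl against 1319 and 1185 under siALKBH5. In CPM these were 47.4 and 44.5 against 70.6 and 72.0, so the groups were well apart and the libraries within each were close. MMP13 rose to 155% of the control level, and its log2 fold change was 0.64, with a standard error of 0.06 (95% interval from 0.52 to 0.75, adjusted p = 4.2e-11 by the quasi-likelihood test of edgeR). This is under the fold change threshold of the study. In the 11 alternative fits it ranged from 0.59 to 0.68, and the adjusted p stayed under 0.05 in all of them. Since MMP1 rose more, the balance of the collagenases shifted: per length, there were 2.85 and 2.40 times as much MMP13 as MMP1 mRNA in siControl, and 1.45 and 1.31 times as much in siALKBH5.

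MMP9, gelatinase B, which degrades basement membrane collagen, was barely detected. It lies on chromosome 20 from 46008908 to 46016561 (ENSG00000100985). It had 2 and 1 counts in siControl and 8 in each siALKBH5 library. Both knockdown libraries were higher, but the control libraries were under the floor of 3 counts and the gene did not pass the expression filter. Summed over the libraries of a group, 3 counts (exact 95% Poisson interval from 0.619 to 8.77) stood against 16 counts (9.15 to 26.0), a ratio of 5.18 with an exact interval from 1.48 to 27.7 that covers counting error only. Without the filter, the adjusted p of MMP9 was 0.094 by edgeR. MMP9 also shares 18.4% of its exon bases with the antisense gene SLC12A5-AS1, which had 0 to 3 counts per library.

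MMP10, stromelysin 2, is made by keratinocytes at the migrating front and can activate procollagenases. It lies next to MMP1, on chromosome 11 from 102770503 to 102780628 (ENSG00000166670). Its counts were 25 and 31 under siControl against 34 and 30 under siALKBH5, or 1.55 and 1.72 CPM against 1.82 and 1.82 CPM. The knockdown libraries were slightly higher, by an amount close to the spread within siControl. The log2 fold change was 0.15 with a 95% interval from -0.51 to 0.81 (adjusted p = 0.76 by the quasi-likelihood test of edgeR). At this depth a rise as large as that of MMP13 lay within the interval, while one as large as that of MMP1 lay outside it. The value was 0.083 without siControl replicate 1 and 0.23 without siControl replicate 2.

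MMP14, the membrane-type metalloproteinase MT1-MMP, was the most abundant member per length and differed least between the groups. It lies on chromosome 14 from 22836557 to 22849027 (ENSG00000157227). Its counts were 4951 and 5430 under siControl against 5629 and 5013 under siALKBH5, which is 307 and 302 CPM against 301 and 305 CPM. The groups overlapped. The log2 fold change was -0.0072 with a 95% interval from -0.064 to 0.049 (adjusted p = 0.87 by the quasi-likelihood test of edgeR), so a change as large as that of any of the 5 members that passed the test lay outside the interval.

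**Figure D2:**
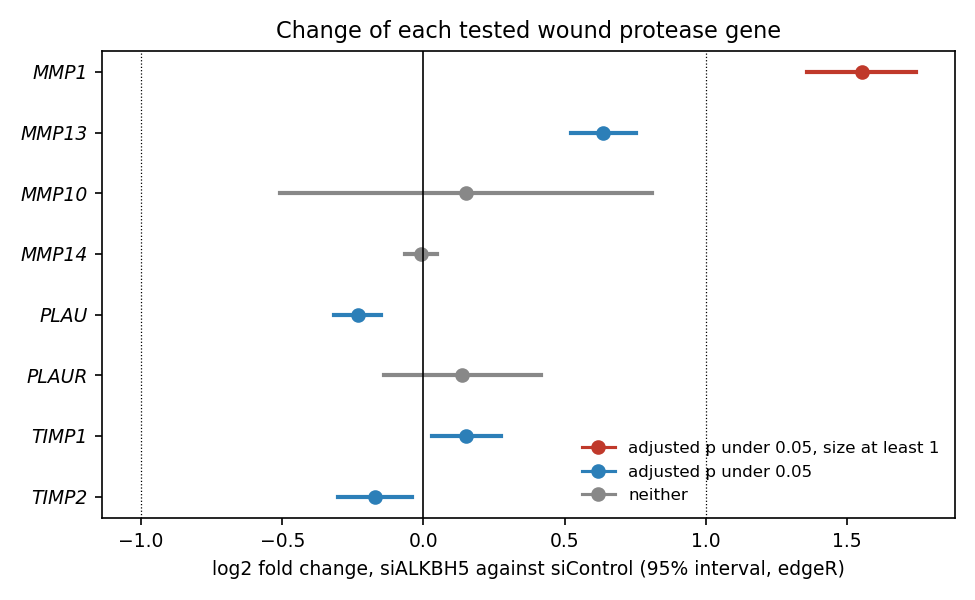
Log2 fold change of the 8 tested members, siALKBH5 against siControl, with the 95% interval from edgeR; dotted lines mark a change of 1 in either direction. MMP1 at 1.55 is the only member past that line, and the interval of MMP14 runs from -0.064 to 0.049.

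In the plasminogen system, PLAU fell. PLAU lies on chromosome 10 from 73909177 to 73917497 (ENSG00000122861). Its counts were 2297 and 2823 under siControl against 2346 and 2133 under siALKBH5, or 143 and 157 CPM against 126 and 130 CPM. The knockdown libraries were both lower, and the control libraries differed more from each other than the knockdown libraries did. The level in siALKBH5 was 85.2% of the control. The log2 fold change was -0.23, with a standard error of 0.04 (adjusted p = 2.8e-05 by the quasi-likelihood test of edgeR). It ranged from -0.30 to -0.16 over the 11 alternative fits, all with an adjusted p under 0.05. PLAU shares 31.1% of its exon bases with C10orf55 on the opposite strand, to which 11 to 26 counts per library were assigned. The protocol describes no strand marking, so reads of the shared stretch cannot be assigned to one of them.

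PLAUR, the receptor that concentrates urokinase at the cell surface, lies on chromosome 19 from 43646095 to 43670547 (ENSG00000011422) and was expressed at a low level. Its counts were 140 and 150 under siControl against 176 and 153 under siALKBH5. In CPM these were 8.69 and 8.34 against 9.42 and 9.30, with the knockdown libraries higher. The log2 fold change of 0.14 had a 95% interval from -0.14 to 0.42 (adjusted p = 0.47 by the quasi-likelihood test of edgeR). Per length, PLAU exceeded PLAUR by 24.8 and 28.4 times in siControl and by 20.1 and 21.1 times in siALKBH5, and these values did not overlap.

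The inhibitors moved in opposite directions, each by a small amount. TIMP1, which binds most secreted MMPs, lies on chromosome X from 47582313 to 47586789 (ENSG00000102265). Its counts were 776 and 918 under siControl against 997 and 938 under siALKBH5, or 48.2 and 51.0 CPM against 53.4 and 57.0 CPM. Both knockdown libraries were higher, with a gap between the groups about as large as that between replicates. Its log2 fold change was 0.15, with a standard error of 0.06 (adjusted p = 0.047 by the quasi-likelihood test of edgeR), and the adjusted p rose to 0.22 with DESeq2, 0.095 with library size as the only scaling and 0.055 without the filter. Without siControl replicate 1 it was 0.27 and without siALKBH5 replicate 2 it was 0.30, so the call of TIMP1 rests on these settings and libraries.

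TIMP2 lies on chromosome 17 from 78852977 to 78925387 (ENSG00000035862). Its counts were 949 and 1037 under siControl against 1042 and 779 under siALKBH5, or 58.9 and 57.6 CPM against 55.8 and 47.3 CPM. The control libraries were close together, and most of the difference lay in siALKBH5 replicate 2. The log2 fold change was -0.17, with a standard error of 0.06 (adjusted p = 0.033 by the quasi-likelihood test of edgeR). Without siALKBH5 replicate 2 it was -0.060 (adjusted p = 0.59 by edgeR), without siALKBH5 replicate 1 it was -0.30, and without siControl replicate 1 it was -0.15 (adjusted p = 0.11 by edgeR). With DESeq2 the adjusted p was 0.19. CEP295NL, on the same strand, shares 3.52% of the exon bases of TIMP2 and had 0 to 3 counts per library. The antisense gene AC022966.1 shares 6.52% of them and had 0 counts in each library.

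Because ratios within a library do not depend on how the libraries are scaled, each MMP was also set against each inhibitor per length. The ratio of MMP1 to TIMP1 was 0.187 and 0.198 in siControl and 0.495 and 0.525 in siALKBH5. Against TIMP2, MMP1 went from 0.560 and 0.640 to 1.73 and 2.31, so that MMP1 mRNA was below TIMP2 mRNA in both control libraries and above it in both knockdown libraries. The ratio of MMP13 to TIMP1 went from 0.535 and 0.474 to 0.719 and 0.687, and that of MMP13 to TIMP2 from 1.60 and 1.53 to 2.52 and 3.02. For MMP14 the direction depended on the inhibitor: against TIMP1 it went from 2.20 and 2.04 to 1.95 and 1.84, and against TIMP2 from 6.58 and 6.61 to 6.82 and 8.12. The ratio of MMP10 to TIMP1 was 0.0282 and 0.0296 in siControl and 0.0299 and 0.0280 in siALKBH5. Its groups overlapped, unlike those of the other 9 ratios. These ratios reuse the same MMPs and inhibitors and are not separate results, and those of MMP9 rest on at most 8 counts per library. In CPM, the groups of 66.3% of all genes tested did not overlap either. With 2 libraries against 2, no permutation test of a ratio can reach 0.05.

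**Figure D3:**
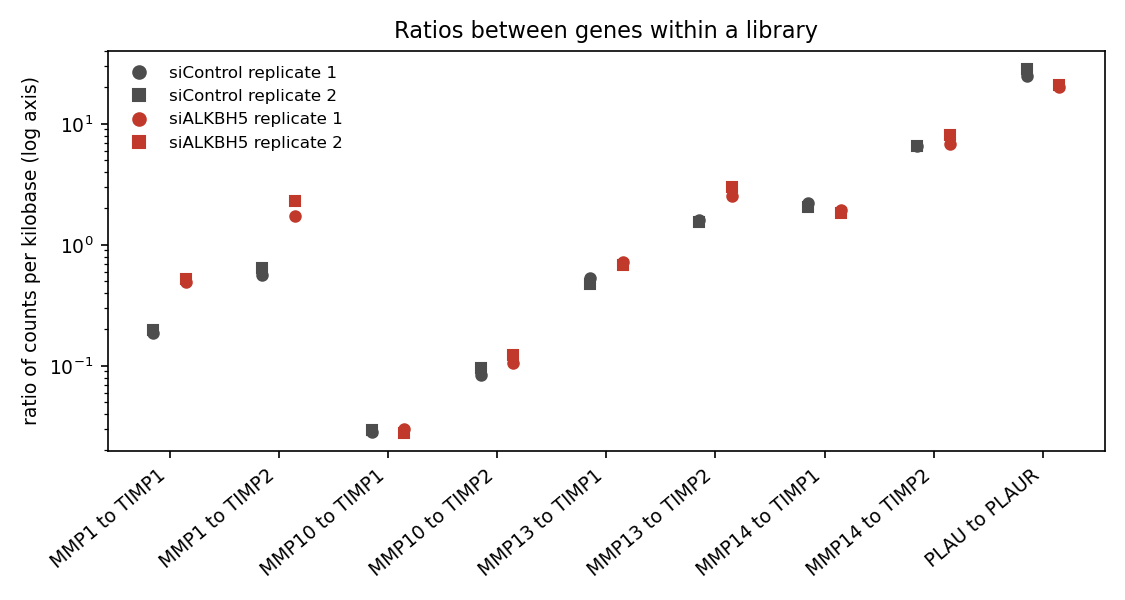
Ratios of counts per kilobase between pairs of genes within each library, on a log axis (grey, siControl; red, siALKBH5; circles, replicate 1; squares, replicate 2); the ratios of MMP9 are left out because of its low counts. MMP1 against TIMP2 crosses 1, from 0.560 and 0.640 to 1.73 and 2.31, and PLAU against PLAUR goes from 24.8 and 28.4 to 20.1 and 21.1.

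Levels of different genes were compared per length, as FPKM recomputed from the counts. The length is that of all annotated exons of a gene and not of the transcript expressed. The order of genes, and whether a ratio between genes stands above or below 1, depend on it. For PLAU, the reads of the stretch shared with C10orf55 add to this uncertainty. In siControl the order was MMP14 at 68.2 ± 0.868 FPKM (SD, n = 2), PLAU at 50.8 ± 3.44, TIMP1 at 32.2 ± 1.31, MMP13 at 16.2 ± 0.721, TIMP2 at 10.3 ± 0.159, MMP1 at 6.20 ± 0.485, PLAUR at 1.91 ± 0.0559, MMP10 at 0.931 ± 0.0689 and MMP9 at 0.0385 ± 0.0207. The libraries of neighbours in this order did not overlap. In siALKBH5 the order differed in 1 place, since MMP1 at 18.3 ± 1.59 FPKM (SD, n = 2) moved above TIMP2 at 9.15 ± 1.06. The other members kept their rank, with MMP14 at 67.9 ± 0.514, PLAU at 43.3 ± 0.961, TIMP1 at 35.8 ± 1.66 and MMP13 at 25.2 ± 0.346 FPKM.

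The members were then set within the whole MMP family of 23 genes. Summed per length, MMP mRNA was 261 and 255 FPKM in siControl and 288 and 290 FPKM in siALKBH5. About as much of it came from MMP28, the keratinocyte MMP epilysin, as from all others together, with 51.8% and 51.9% of the sum in siControl and 49.3% and 48.4% in siALKBH5. MMP15 gave 5.47% to 5.95% and MMP2 gave 4.36% to 4.82% in the 4 libraries. MMP28, MMP15 and MMP2 were singled out here after their values were seen. MMP14 gave 26.4% and 26.6% of the sum in siControl and 23.4% and 23.5% in siALKBH5. The collagenases MMP1 and MMP13 together gave 8.66% and 8.73% in siControl and 14.6% and 15.4% in siALKBH5. MMP1 alone went from 2.25% and 2.57% to 5.95% and 6.69%. At the other end, 8 MMP genes were at or under 3 counts in all 4 libraries.

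**Figure D4:**
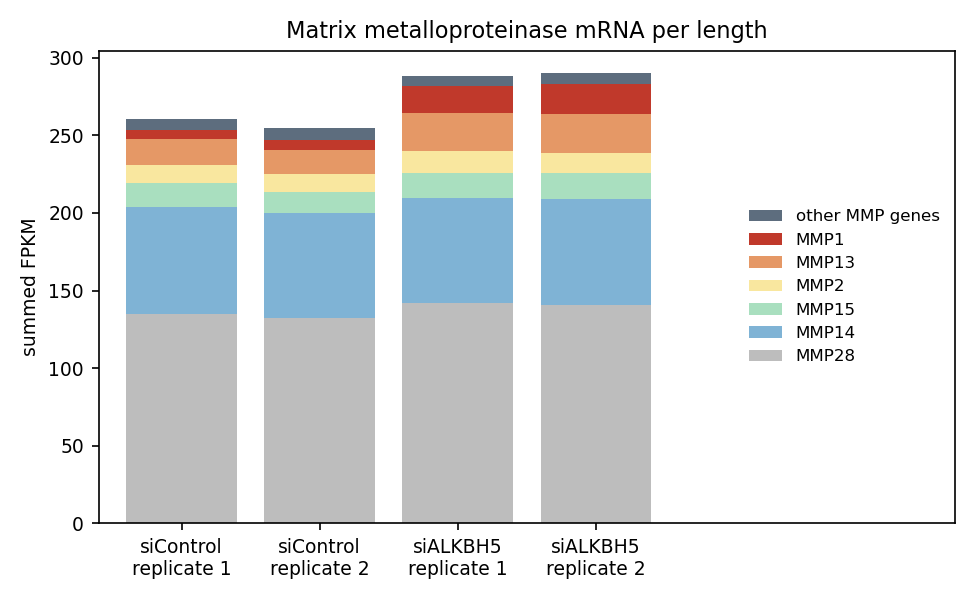
Stacked bars of the FPKM of all 23 MMP genes in each library, per length and on TMM library sizes. The sum was 261 and 255 FPKM in siControl and 288 and 290 in siALKBH5, and the shares of MMP1 and MMP13 were larger in both knockdown libraries.

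MMP1, MMP10 and MMP13 share a place in the genome that their choice did not use. They lie in a cluster of 9 MMP genes on chromosome 11, from 102520508 to 102955734. Of the 17 genes listed in this span, 8 had no count in any library and 4 were tested: MMP1, MMP10, MMP13 and MMP12. MMP12, the macrophage elastase, lies between MMP1 and MMP13 and went the other way, from 122 and 125 counts under siControl to 94 and 91 under siALKBH5. It fell by 0.46 on the log2 scale (adjusted p = 0.026 by the quasi-likelihood test of edgeR), and its adjusted p was 0.19 with DESeq2, 0.15 without siALKBH5 replicate 1 and 0.14 without siControl replicate 1. MMP7 had 6 to 10 counts per library, MMP3 had 2 counts in one knockdown library and 0 in the others, and MMP8, MMP20 and MMP27 had 0. WTAPP1, a pseudogene that shares 7.61% of the exon bases of MMP1 on the opposite strand, had 3 to 6 counts per library.

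Genes of the lists around the members are counted at an adjusted p under 0.05 by edgeR, at which 19.3% of all genes tested were higher and 17.3% were lower. Of the 18 other MMP genes, 8 were tested, with 3 higher, 2 lower and a median log2 fold change of 0.13. MMP24, a membrane-type MMP, was the only one past both thresholds, at -1.09, from 24 and 30 counts in siControl to 13 in each siALKBH5 library (adjusted p = 0.031 by the quasi-likelihood test of edgeR). Its adjusted p was above 0.05 with any 1 library left out, between 0.082 and 0.19. MMP11 and MMP25 had log2 fold changes of 0.77 and 0.65 from 10 to 36 counts per library, and the adjusted p of edgeR was 0.098 and 0.29. With 1 library left out, the value of MMP25 lay between 0.39, without siALKBH5 replicate 1, and 0.87.

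Of 8 other genes that control MMPs, 6 were tested, with 3 higher, 1 lower and a median of 0.18. TIMP3, the inhibitor that stays bound to the matrix and also blocks ADAM proteases, was the one that fell, from 2355 and 2596 counts in siControl to 1831 and 1561 in siALKBH5. Its log2 fold change of -0.59 (adjusted p = 6.1e-14 by the quasi-likelihood test of edgeR) was the largest of the tested TIMP genes. FURIN, the convertase that activates membrane-type MMPs, and CD44, a hyaluronan receptor that can anchor MMPs at the surface, each rose by 0.23. RECK, a membrane-bound MMP inhibitor, had a log2 fold change of 0.83 from 12 to 29 counts per library (adjusted p = 0.11 by edgeR).

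Of 12 other plasminogen system genes, 10 were tested, with 5 higher and 0 lower by edgeR, against 19.3% and 17.3% of all genes, and a median of 0.28. The number lower was also 0 at an unadjusted p under 0.05 and with DESeq2 and limma. The genes that were higher included ENO1, a glycolytic enzyme that also binds plasminogen at the cell surface, which rose by 0.39. SERPINE2, protease nexin 1, had counts of 10 and 7 under siControl against 24 and 11 under siALKBH5 (log2 fold change 0.98, adjusted p = 0.14 by edgeR), and was at 0.42 without siALKBH5 replicate 1. PLGRKT, a plasminogen receptor, had a log2 fold change of 0.30 (adjusted p = 0.067 by edgeR). It was at 0.17 without siControl replicate 1 and at 0.46 without siControl replicate 2 (adjusted p = 0.021 by edgeR). PLG itself had no count in any library, so plasminogen mRNA was not detected at this depth, which does not exclude a level too low to be counted.

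Of 7 ADAM sheddases, 6 were tested, with 3 higher and 1 lower and a median of 0.12. ADAM15 rose by 0.64, ADAM19 by 0.43 and ADAM8 by 0.31, while ADAM10, the main sheddase of E-cadherin, fell by 0.19. ADAM19 had an adjusted p of 0.065 with DESeq2. Among 12 epidermal serine proteases and inhibitors, 11 were tested, with 6 higher, 3 lower and a median of 0.18. The kallikrein KLK7, which cuts corneodesmosomes, rose by 0.63, whereas KLK11 fell by 0.60 and SPINK5, the kallikrein inhibitor LEKTI, fell by 0.34. SPINK5 had an adjusted p of 0.062 with DESeq2 and 0.075 without siALKBH5 replicate 1. KLK6 had a log2 fold change of 0.38 (adjusted p = 0.070 by edgeR).

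Of 10 genes for matrix and basement membrane substrates, 9 were tested, with 4 higher and 0 lower by edgeR, against 19.3% and 17.3% of all genes, and a median of 0.018. Here too the number lower was 0 at an unadjusted p under 0.05 and with DESeq2 and limma. COL4A1, a chain of basement membrane collagen IV, rose by 0.88, fibronectin FN1 by 0.71 and LAMA3, a laminin chain, by 0.14. COL4A1 was at 1.08 without siControl replicate 2.

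**Figure D5:**
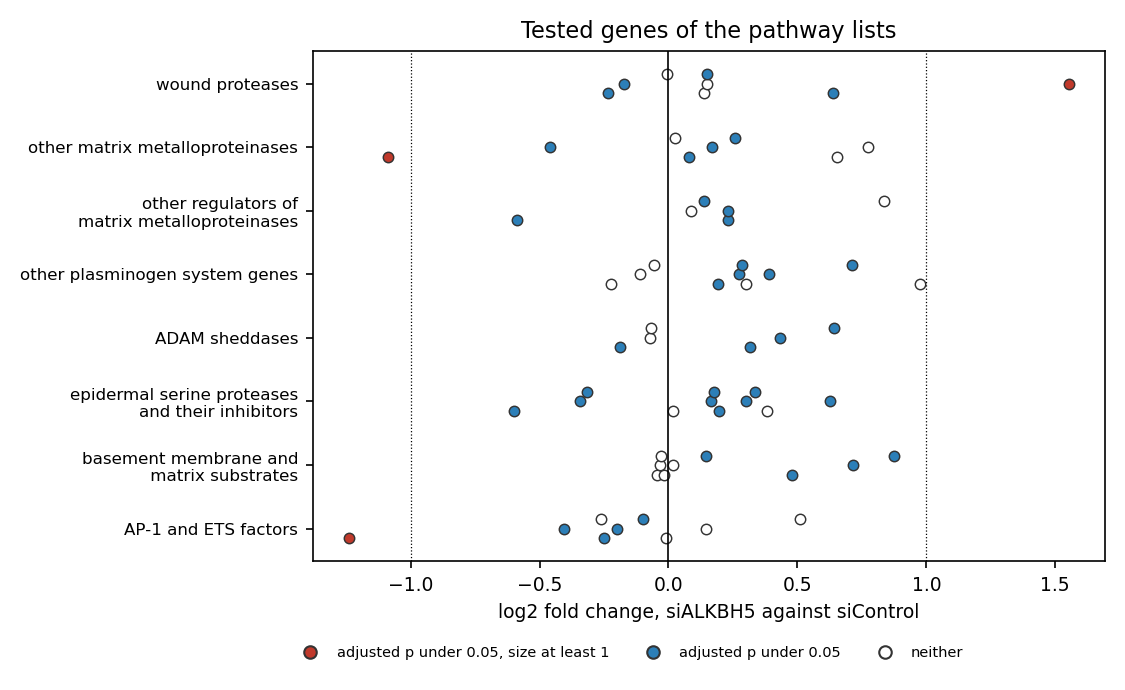
Log2 fold change of each tested gene of the wound proteases and of the lists around them, siALKBH5 against siControl (red, adjusted p under 0.05 and a change of at least 1 in size; blue, adjusted p under 0.05; white, neither; dotted lines at 1 and -1). The red points are MMP1 at 1.55, MMP24 at -1.09 and FOS at -1.24.

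AP-1, a dimer of FOS and JUN proteins, is the textbook activator of MMP1 and several other wound protease genes, often together with ETS factors. Of 9 AP-1 and ETS genes, all tested, 0 were higher and 5 were lower at an adjusted p under 0.05 by edgeR, against 19.3% and 17.3% of all genes, with a median of -0.20. At an unadjusted p under 0.05 the number higher was also 0, and with DESeq2 it was 0 higher and 4 lower at the adjusted p. FOS had counts of 265 and 287 under siControl against 133 and 108 under siALKBH5, and it fell by 1.24 on the log2 scale (adjusted p = 1.2e-09 by the quasi-likelihood test of edgeR). ETS1 fell by 0.40. JUN had a log2 fold change of -0.26 (adjusted p = 0.13 by edgeR) and FOSB of 0.51 from 22 to 46 counts per library (adjusted p = 0.18 by edgeR). FOSB was at 0.21 without siControl replicate 1 and at 0.94 without siControl replicate 2. Per length, FOS was at a mean of 5.00 FPKM in siControl, below FOSL2 at 35.7 and JUNB at 106. FOSL2 had a log2 fold change of -0.010 (adjusted p = 0.83 by edgeR) and JUNB of -0.10 (adjusted p = 0.026 by edgeR). FOSL2 and JUNB were singled out here after their values were seen. MMP1 and MMP13 rose in the same libraries in which FOS and ETS1 fell, and a link between these changes was not tested.

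The RefSeq promoter table (GRCh38.p14, 250 bases before to 50 bases after a start site) held MMP10, MMP14, PLAU, PLAUR and TIMP1, with 6 promoters for these 5 members. They were searched for TGANTCA, a loose form of the AP-1 letters in which N is any base. The pattern reads the same on both strands, and 7.71% of all 35116 promoters in the table hold it. The match in MMP10, with A at N, starts at position -67 from the start site. That in PLAUR, with G at N, starts at position -186. MMP14, PLAU and TIMP1 had none in this window. MMP1, MMP9, MMP13 and TIMP2 have no promoter listed there and were not searched, so nothing is known here of AP-1 letters near them. The 30 bases around each match are shown on the strand of the gene, with the matched letters in capitals. MMP10 and PLAUR are shown because their windows hold this loose form.
MMP10, chr11:102780677-102780706, minus strand: aaacacatgcaTGAATCAtactgttggtga
PLAUR, chr19:43670337-43670366, minus strand: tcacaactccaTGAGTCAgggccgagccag
Neither MMP10 nor PLAUR passed the test of expression (adjusted p = 0.76 and 0.47 by edgeR). A match in these letters is a description and not a bound site.

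The genes whose pattern over the 4 libraries was most like that of MMP1 were sought among the other 9258 genes with a mean of at least 10 CPM, by the root mean square distance of log2 CPM relative to siControl. They were IL7R at a distance of 0.0935, PKMYT1 at 0.0968 and ST6GAL1 at 0.109 on the log2 scale. IL7R had counts of 113 and 120 under siControl against 387 and 367 under siALKBH5, beside 186 and 232 against 631 and 629 for MMP1. With 4 libraries, such closeness is a description only.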

How the data were processed

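RNA-seq of 2 siControl and 2 siALKBH5 libraries of HaCaT cells was analysed. Poly-A RNA was enriched, and the submitters' processing notes name CASAVA, HISAT2 2.0.5, featureCounts 1.5.0-p3 and DESeq2 1.20.0 with the build hg38. The authors deposited raw counts per gene and FPKM, the latter scaled by the authors within each of the tables; the deposited FPKM were used only to check ratios within a library. The deposited fold changes and p-values of 1 library against 1 were not used. All 58735 gene identifiers and coordinates matched GENCODE 29.

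The quasi-likelihood test of edgeR 4.0.16 (R 4.3.3), after filterByExpr and TMM and without covariates, was applied to the counts. P-values were adjusted after Benjamini and Hochberg over 15075 genes. A call needed an adjusted p below 0.05 and 1 or more in either direction on the log2 scale. FPKM were recomputed from counts, the listed gene length and TMM library sizes. Alternatives were DESeq2 1.42.0, limma 3.58.1 on log2 CPM (prior count 2), other scalings and filters, the replicate number as a block, no minimum fold change and each library left out. The 2 libraries of a group differed by more than sampling noise (chi-square per degree of freedom 1.74 and 1.85). In simulated counts, 100 genes were changed by 1 and 100 by 2 on the log2 scale. At an adjusted p under 0.05 alone, edgeR tested 14956 genes and called 100 and 100 of them, with 6 false calls. The changed genes were drawn from those with more counts, so the simulation does not cover genes with few counts, such as MMP10.

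The members and lists were chosen with earlier results of these data known. Named genes were the members, ALKBH5, list genes past both thresholds, up to 4 per list with the largest change, the 3 genes most like MMP1, and genes that overlap or neighbour a member. Some genes that this rule named are not reported here, although the counts of their lists include them.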

Additional observations from a re-analysis of the deposited data

How the results depend on the processing

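MMP1, MMP13 and PLAU kept their direction and their side of the threshold in all 11 alternative fits, and TIMP1 and TIMP2 kept an adjusted p under 0.05 in 6 and 8 of them. MMP14 changed sign without siALKBH5 replicate 1, at 0.0024, and without siControl replicate 1, at 0.0084, within a range of -0.021 to 0.0084 over the fits with 1 library left out. MMP10 and PLAUR passed in none of their fits.

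With DESeq2 the genes called over the whole table were 104 higher and 48 lower, against 244 and 196 with edgeR, and the cause was not tested. With 1 library left out they were 208 to 234 higher and 140 to 162 lower. Without the minimum fold change they were 2913 higher and 2610 lower by construction, and so were 3 members higher and 2 lower, 3 other MMPs higher and 2 lower, 3 MMP regulators higher and 1 lower, 5 plasminogen system genes higher, 3 ADAM genes higher and 1 lower, 6 epidermal serine protease genes higher and 3 lower, 4 matrix genes higher, and 5 AP-1 and ETS genes lower. The number of other MMPs called lower, 1 with edgeR (MMP24), was 0 with DESeq2, which gave MMP24 no adjusted p, 0 with limma, where MMP24 was at -0.98, and 0 with each library left out. The number of matrix genes called higher ranged from 0 to 1 with 1 library left out, the 1 being COL4A1 without siControl replicate 2. PLGRKT passed an adjusted p of 0.05 without siControl replicate 2 (0.021 by edgeR).

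The labels name no pairing, although the libraries were deposited as 1 siControl with 1 siALKBH5 library of the same replicate number. The deviations of same-numbered libraries had a correlation of 0.042 over 15075 genes. With the replicate number as a block, 254 genes were higher and 209 lower, 436 genes were called in both fits, and the members called stayed at 1 higher and 0 lower. PLGRKT was the named gene that the block moved past an adjusted p of 0.05 (0.038 by edgeR). Depth limits MMP9 most, with at most 8 counts per library. Intervals on counts cover counting error only.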
